A study of Mus musculus with 3 samples.

Results

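Guidance genes were followed through the cells of the mouse heart other than cardiomyocytes (non-CMs), in ventricles that were healthy, adaptively hypertrophic or failing. They were taken by name from the gene list of the series: semaphorins (Sema) and their plexin receptors (Plxn), ephrins (Efna and Efnb) and their Eph receptors (Epha and Ephb), Slit ligands and Robo receptors, and netrins (Ntn) and Unc5 receptors. Of 27998 genes, 70 carried such a name, and 56 of these had at least 10 unique molecular identifiers (UMIs, each a counted RNA molecule) over the 3 libraries. These 56 comprised 19 semaphorins, 9 plexins, 7 ephrins, 10 Eph receptors, 2 Slits, 3 Robo receptors, 3 netrins and 3 Unc5 receptors. Just inside the minimum lay Sema3a with 11 UMIs and Sema3e and Sema4f with 12 each, and just outside lay Epha5 with 9 UMIs and Efna3 and Ntng2 with 6 each.

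These proteins were named for steering growing axons, and blood vessels use the same systems to steer branches and to keep arteries and veins apart. Secreted class 3 semaphorins bind neuropilins that signal through plexins, and Plxnd1 is the plexin best known from endothelial cells (ECs). Ephrins are held on the cell surface and signal to Eph receptors on a touching cell, with Efnb2 a classic arterial gene and Ephb4 its venous counterpart. Slits signal to receptors of the Robo family, and Robo4 is the family member known from ECs. Netrins signal to Unc5 receptors, of which Unc5b is known from arteries and sprouting tips.

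All hearts came from wild-type male C57BL/6JJcl mice. The healthy group was the control (0 weeks), and the other 2 groups had transverse aortic constriction (TAC), a ligature that loads the left ventricle with pressure, at 8 weeks of age and were taken 2 weeks later (adaptive hypertrophy) or 12 weeks later (heart failure). The weeks are those of the published methods, atria were removed, and the number of hearts pooled per library is not given in the sources used here. There was 1 droplet library per phase and thus no replicate, so that phase and library cannot be told apart, no test between phases was possible, and every interval given here is a 95% interval for counting error only.

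Cells with at least 200 genes numbered 3892 at 0 weeks, 2231 at 2 weeks and 792 at 12 weeks, with median UMI counts per cell of 2589, 1495 and 1434. Over 10% of UMIs were mitochondrial in 5.04%, 9.32% and 17.2% of them. Libraries shared from 1 to 5 cell barcodes. Each cell was given the class whose 10 marker genes summed highest and at least 1.5 times the next, with no guidance gene among the markers. This gave 3231 ECs, 1534 fibroblasts (FBs), 390 mural cells (smooth muscle cells and pericytes), 1313 blood cells and 82 neural cells, and left 365 cells without a class. The marker sums follow from this gate and are given for scale, not as a check of the labels. The endothelial marker sum was 6693, 8244 and 8596 counts per 1000000 UMIs (CPM) in ECs at 0, 2 and 12 weeks. In FBs it was 528, 577 and 633 CPM, in blood cells 122, 132 and 262 CPM, and in mural cells 1082, 1224 and 644 CPM. Levels below are CPM, the summed UMIs of a gene in a class over all UMIs of that class, and the level of a class over phases is the mean of its 3 libraries. CPM does not correct for the length of a transcript, and levels are therefore compared for 1 gene at a time.

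Of the 7 genes that were at least 2-fold higher in ECs at 2 weeks than at 0 weeks, Sema3f was not in the promoter table, and the promoters of the 4 others with the most EC UMIs are shown with the letters AGGAAG, a core bound by ETS factors of the endothelium, in capitals on either strand. They were read from RefSeq on GRCm38.p6, 5′ to 3′ on the strand of the gene, from 250 bases before to 50 bases after its start. The Plxnd1 promoter (chr6:115994956-115995255, minus strand) held the motif 2 times and the Sema3g promoter (chr14:31217623-31217922, plus strand) held it 1 time. The Sema7a promoter (chr9:57939862-57940161, plus strand) and the Ephb4 promoter (chr5:137349859-137350158, plus strand) had no match in these 300 bases.
Plxnd1: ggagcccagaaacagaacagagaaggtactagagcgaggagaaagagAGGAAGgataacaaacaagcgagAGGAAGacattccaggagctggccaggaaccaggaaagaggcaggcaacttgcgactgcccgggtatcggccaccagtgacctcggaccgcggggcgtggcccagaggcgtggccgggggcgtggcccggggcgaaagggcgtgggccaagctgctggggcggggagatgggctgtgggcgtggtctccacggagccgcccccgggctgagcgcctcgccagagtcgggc
Sema3g: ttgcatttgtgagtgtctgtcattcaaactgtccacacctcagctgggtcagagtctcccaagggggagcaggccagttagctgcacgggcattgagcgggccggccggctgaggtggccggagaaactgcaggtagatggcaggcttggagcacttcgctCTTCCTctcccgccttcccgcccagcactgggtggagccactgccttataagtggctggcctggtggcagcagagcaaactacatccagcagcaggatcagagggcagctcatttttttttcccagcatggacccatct
Sema7a: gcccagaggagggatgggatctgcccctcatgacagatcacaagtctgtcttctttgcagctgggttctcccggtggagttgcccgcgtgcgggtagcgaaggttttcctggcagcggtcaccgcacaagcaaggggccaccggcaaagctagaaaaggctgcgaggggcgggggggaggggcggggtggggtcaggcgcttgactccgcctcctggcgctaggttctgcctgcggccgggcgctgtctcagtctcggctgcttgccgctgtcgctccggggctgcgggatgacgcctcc
Ephb4: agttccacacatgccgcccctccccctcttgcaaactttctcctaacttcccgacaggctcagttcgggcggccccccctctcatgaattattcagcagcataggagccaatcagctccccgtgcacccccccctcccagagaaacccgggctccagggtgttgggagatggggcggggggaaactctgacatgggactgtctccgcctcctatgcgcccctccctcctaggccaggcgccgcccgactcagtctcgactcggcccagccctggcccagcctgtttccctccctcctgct
The motif was present in 35.9% of the 64 promoters that matched 49 of the guidance genes and in 35.4% of all 32851 promoters of the table. For CGGAAG, another ETS core, the shares were 7.81% and 16.9%, and for GTGGGAA, a core bound by the Notch effector RBPJ, they were 6.25% and 6.38%. These shares were not tested, and a match marks letters, not a bound site.

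Guidance genes were divided among the cell classes. ECs led 12 of the 56 genes, with a level at least 2 times that of every other class, against 6.61% of all 14081 genes with at least 10 UMIs in the classes. FBs led 8 (6.43% of all genes), mural cells 3 (5.19%), blood cells 2 (7.58%) and neural cells 9 (8.8%), and 22 had no leading class. In all 12 genes led by ECs, ECs were the highest class in each of the 3 libraries, and the same held for 7 of the 8 genes led by FBs. The EC genes were 4 semaphorins, 2 plexins, 2 ephrins, 3 Eph receptors and Robo4, with no Slit, netrin or Unc5 gene. The FB genes were Slit2, Robo1, Ntn1 and Unc5c, but also Sema3d, Efna5, Epha7 and Epha3 of the semaphorin, ephrin and Eph families.

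**Figure D1:**
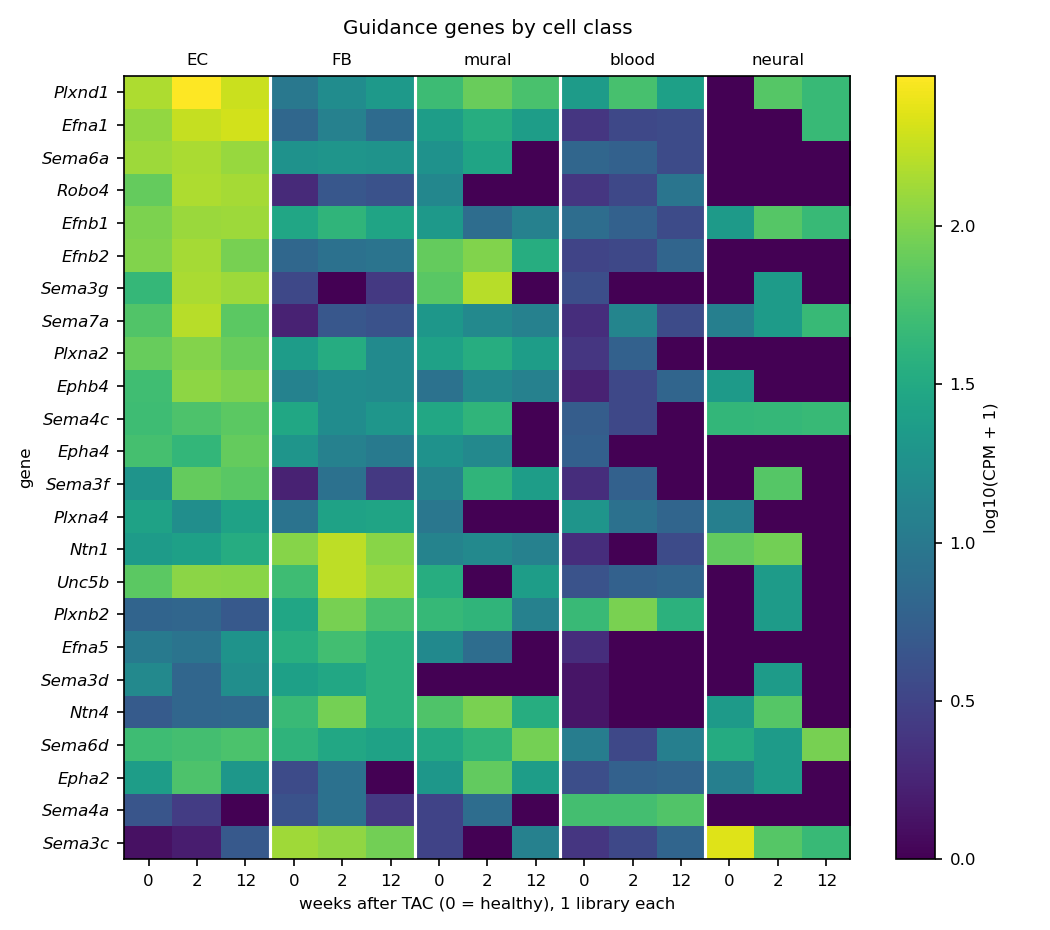
Levels of the 24 guidance genes with at least 200 UMIs in the 5 classes, as log10(CPM + 1), in each class at 0, 2 and 12 weeks. Genes are sorted by the class with the highest mean level, and the EC genes fill the top left, the FB genes such as Ntn1 and Efna5 the middle, and Sema4a is bright in blood cells.

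Among the semaphorin ligands, Sema6a, a transmembrane semaphorin, was measured in ECs at 129, 145 and 123 CPM at 0, 2 and 12 weeks and averaged 17.8 CPM in FBs, the next class. Sema7a, a semaphorin anchored to the membrane, stood at 61.9, 160 and 70.3 CPM in ECs. It averaged 26.2 CPM in neural cells, the next class, and 14.8 CPM in mural cells. Sema3f, a secreted ligand for neuropilin receptors, stood at 18.1, 77.1 and 68.3 CPM in ECs and averaged 25.0 CPM in mural cells, the next class. Neural cells held Sema3f at 65.7 CPM at 2 weeks, from 3 UMIs. Thus the 3 ligands were higher in ECs than in the other classes in every library, and for Sema7a and Sema3f the libraries also differed from each other. Sema3c, another secreted ligand, was by contrast nearly absent from ECs (mean 1.59 CPM) and was found in FBs at 130, 115 and 87.5 CPM. Neural cells held Sema3c at 224, 65.7 and 45.9 CPM, from 21, 3 and 1 UMIs. Sema4a was a blood gene at 53.5, 53.8 and 62.1 CPM, with 4.06 CPM in FBs, the next class. Sema4c, a transmembrane semaphorin, stood at 49.6, 59.9 and 70.3 CPM in ECs and at 44.1 CPM on average in neural cells. Sema6d had no leading class, with means of 53.7 CPM in both ECs and mural cells, 48.6 CPM in neural cells and 31.5 CPM in FBs. Sema5a averaged 37.4 CPM in mural cells and 26.3 CPM in FBs and 1.23 CPM in ECs.

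Of the plexins, Plxnd1 was measured in ECs at 148, 297 and 189 CPM, in mural cells at 48.7, 80.7 and 56.5 CPM and in FBs at 8.82, 14.8 and 20.7 CPM. Plxna2 stood at 78.8, 103 and 80.0 CPM in ECs and averaged 27.1 CPM in mural cells. Plxnb2 had the opposite distribution: it averaged 59.4 CPM in FBs, 59.1 CPM in blood cells and 32.0 CPM in mural cells, and 4.90 CPM in ECs. Neither of the next 2 had 200 UMIs. Plxnb1 was led by mural cells at 34.7, 53.8 and 22.6 CPM from 42 UMIs, and Plxnc1 by blood cells at 11.7, 26.9 and 13.5 CPM. The neuropilins, the binding partners of the plexins, were no members but went with them in ECs, Nrp1 at 1031 CPM against 210 CPM in the next class and Nrp2 at 249 CPM against 56.1 CPM.

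ECs led 2 of the 7 ephrins and 3 of the 10 Eph receptors, and FBs 1 and 2. Efna1 was measured in ECs at 118, 179 and 201 CPM, with a mean of 26.3 CPM in mural cells and 7.70 CPM in FBs. Efnb1 stood at 95.4, 125 and 127 CPM in ECs, with 44.3 CPM on average in neural cells, the next class, and 32.0 CPM in FBs. Efnb2 was shared by ECs, at 101, 137 and 91.8 CPM, and mural cells, at 76.9, 101 and 33.9 CPM. All 3 were low in blood cells, where no mean was above 4.73 CPM. Ephb4 was an EC gene at 50.8, 111 and 97.6 CPM with 13.5 CPM in FBs, and Epha4 one at 54.6, 42.4 and 76.1 CPM with 10.3 CPM in mural cells. Epha2 was found both in ECs, at 22.8, 59.0 and 19.5 CPM, and in mural cells, at 19.5, 74.0 and 22.6 CPM, the last from 2 UMIs. Efna5 was an FB gene at 35.8, 51.8 and 38.2 CPM against a mean of 11.6 CPM in ECs, and Epha7 one at 23.5, 25.9 and 12.7 CPM.

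Of the Slit, Robo, netrin and Unc5 genes, ECs led Robo4, FBs led Slit2, Robo1, Ntn1 and Unc5c, and neural cells led Ntng1. Robo4 was measured in ECs at 77.3, 146 and 139 CPM and averaged 2.62 CPM in FBs and 4.33 CPM in mural cells. Robo1, in contrast, was found in FBs at 13.5, 22.2 and 9.55 CPM and averaged 0.681 CPM in ECs. Slit2 had 49, 1 and 6 UMIs in FBs, and Slit3 averaged 21.9 CPM in FBs and 12.5 CPM in mural cells. Ntn1 was an FB gene at 105, 167 and 107 CPM against 21.9, 24.3 and 33.2 CPM in ECs and a mean of 54.1 CPM in neural cells. Ntn4, a netrin of basement membranes, was shared by FBs, with a mean of 57.8 CPM, and mural cells, with 62.9 CPM, and averaged 5.16 CPM in ECs. Unc5b was shared by ECs, at 70.3, 110 and 107 CPM, and FBs, at 49.5, 167 and 124 CPM. Its FB level was thus 70.4% of its EC level in healthy hearts, 152% at 2 weeks and 116% at 12 weeks. These differences between classes were not tested. Among the 1239, 100 and 195 FBs, those without a UMI of any endothelial marker (370, 37 and 54 cells) had Unc5b at 48.8 CPM (35.6 to 65.3), 147 CPM (59.2 to 303) and 87.7 CPM (35.3 to 181). Unc5b was thus also found in FBs without a detected endothelial marker, from 45, 7 and 7 UMIs. In these FBs the intervals of both libraries after TAC included the EC level.

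Neural cells were few, and 2 of the 9 genes they led had at least 20 UMIs in them. Sema3b, a secreted semaphorin, stood at 470, 985 and 368 CPM from 44, 45 and 8 UMIs, with a mean of 16.2 CPM in FBs. Ntng1, a netrin anchored to the membrane, stood at 107, 87.6 and 276 CPM from 10, 4 and 6 UMIs. The other 7 genes rested on 8 UMIs or fewer. Between phases Sema3b had ratios of 2.10 (1.35 to 3.25) and 0.782 (0.318 to 1.68), and Sema3c one of 0.293 (0.0560 to 0.981) at 2 weeks, the only 2 members with enough UMIs (9.56% of all genes were at least 2-fold higher and 6.69% lower). At 12 weeks 0 of them was at least 2-fold higher (8.98% of all genes) and Sema3c was lower (11.2%), from 1 UMI. Neural cells also held FB markers at 2509, 2496 and 1470 CPM, against 24999, 28095 and 25016 CPM in FBs, and their part in the neural levels of genes that FBs express, such as Sema3c, was not tested.

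Endothelial subtypes were set by counting markers of arterial, capillary, venous, endocardial, lymphatic and proliferating ECs, and their names are used here with "like". Of the 3231 ECs, 662 were arterial-like, 2142 capillary-like, 217 venous-like and 53 lymphatic-like. The arterial-like share of ECs was 19.8%, 19.7% and 27.2% at 0, 2 and 12 weeks. The border between arterial-like and capillary-like cells was not sharp, since 289 arterial-like cells had just the 2 markers needed and 738 capillary-like cells had 1 arterial marker. The 16 endocardial-like and 50 proliferative-like cells were too few for a description gene by gene.

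Sema3g, a secreted semaphorin, was found mostly in arterial-like ECs. It stood in arterial-like ECs at 155 CPM (127 to 186) at 0 weeks, 519 CPM (471 to 572) at 2 weeks and 335 CPM (256 to 431) at 12 weeks. Capillary-like ECs had it at 12.3, 22.3 and 10.9 CPM. The ratio of arterial-like to capillary-like cells was 12.6 (8.03 to 20.4), 23.3 (17.3 to 32.0) and 30.9 (10.1 to 154), and the intervals did not overlap in any library. Arterial-like cells held 75.2%, 85.8% and 92.3% of all Sema3g UMIs of ECs. A UMI of Sema3g was seen in 31.4%, 41.0% and 41.2% of arterial-like cells, and after thinning each cell to 1000 UMIs in 15.9%, 29.0% and 27.0% of the 226, 293 and 63 cells deep enough. In blood cells, a class that should lack it, 0.457% of cells had one, at a median depth of 2408 UMIs against 1914 in arterial-like cells.

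In all, 5 of 26 guidance genes with at least 20 UMIs were at least 2-fold higher in arterial-like than capillary-like ECs (5.85% of all genes) and 1, Ephb1, was lower (5.3%). Besides Sema3g these were Efnb2, Efna5, Ntn1 and Ntn4. Ntn1 averaged 36.4 CPM in arterial-like and 6.78 CPM in capillary-like cells, from 55 and 36 UMIs. Ntn4 averaged 10.5 and 2.50 CPM, from 18 and 9 UMIs. Mural markers summed to 646, 414 and 799 CPM in arterial-like and 225, 70.0 and 228 CPM in capillary-like cells. The part of mural RNA in the levels of genes that mural cells express, such as Ntn4, was not tested. Efnb2 stood in arterial-like cells at 141, 272 and 162 CPM, in capillary-like cells at 85.7, 99.5 and 47.1 CPM and in venous-like cells at 68.0, 49.9 and 61.3 CPM. Ephb4, its venous receptor, was lower in arterial-like cells, at 41.4, 78.3 and 83.8 CPM, than in venous-like cells, at 68.0, 166 and 92.0 CPM. Capillary-like cells held Ephb4 at 53.4, 115 and 109 CPM. They were thus highest at 12 weeks, where the venous-like level rested on 3 UMIs. The Ephb4 intervals of arterial-like and venous-like cells were apart at 2 weeks (60.2 to 100 against 123 to 219) and overlapped at 0 and 12 weeks. Efna5 was found in arterial-like cells at 35.9, 29.8 and 50.3 CPM, from 26, 24 and 9 UMIs, and in capillary-like cells from 1, 3 and 0 UMIs. Unc5b was 1.71-fold (1.27 to 2.30), 2.38-fold (1.92 to 2.94) and 1.18-fold (0.656 to 2.11) as high in arterial-like as in capillary-like cells, and thus just under the 2-fold line on average.

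**Figure D2:**
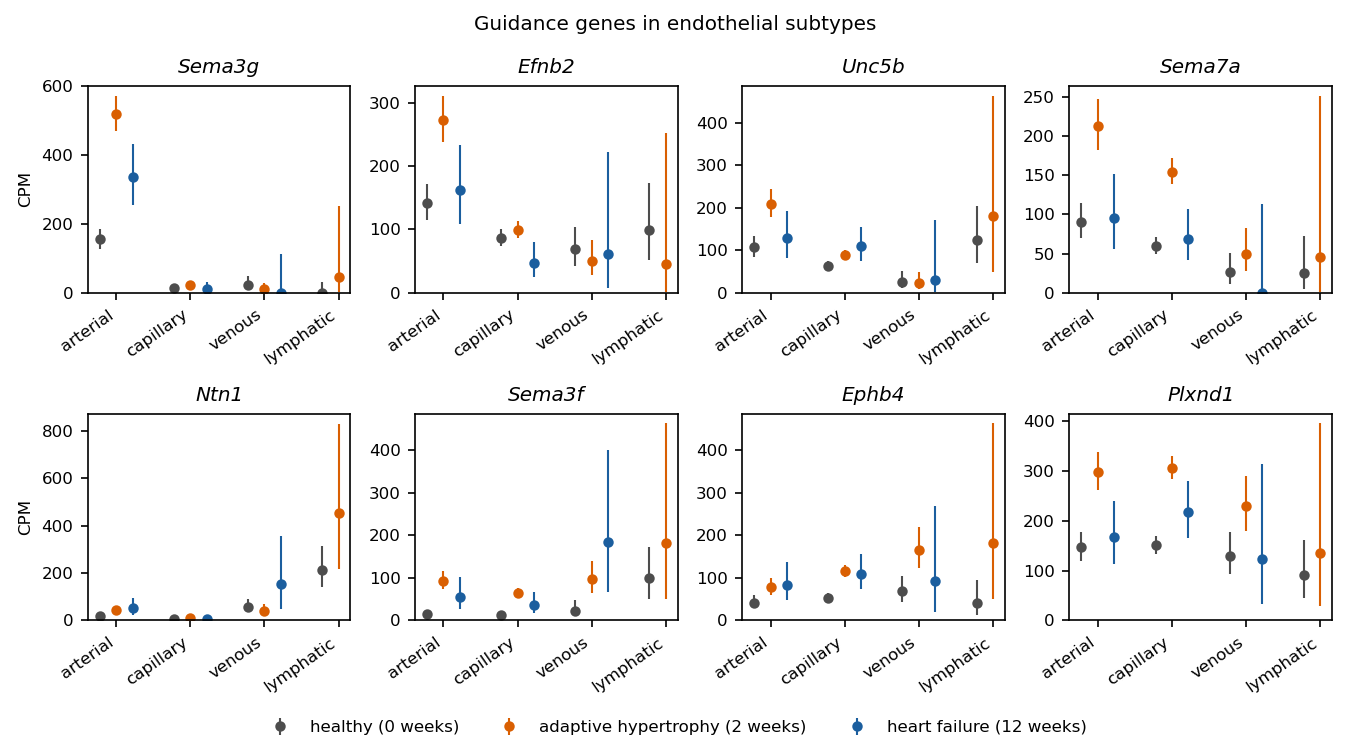
Levels of 8 guidance genes in CPM in arterial-like, capillary-like, venous-like and lymphatic-like ECs of each library, with 95% Poisson intervals for counting error. Sema3g is high in arterial-like cells, Efnb2 is highest there in every library drawn, and Ntn1 is highest in lymphatic-like cells, where the 4 cells at 12 weeks are not drawn.

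Venous-like ECs had 4 of 25 genes at least 2-fold higher than capillary-like ECs (8.68% of all genes) and 3 at least 2-fold lower (15.6%). Sema7a and Unc5b were among the lower ones: Sema7a stood in venous-like cells at 25.9 CPM at 0 weeks and 49.9 CPM at 2 weeks, against 59.5 and 155 CPM in capillary-like cells. Unc5b stood at 25.9 and 23.3 CPM against 62.1 and 87.7 CPM. Ntn1 was higher, at 58.3 CPM (34.6 to 92.1) and 39.9 CPM (20.6 to 69.7) against 7.19 and 9.54 CPM. Sema3d stood at 19.4, 33.2 and 123 CPM in venous-like against 4.62, 1.36 and 3.62 CPM in capillary-like cells, and Robo2 had 0, 7 and 1 UMIs there. The 14 venous-like cells at 12 weeks gave 5 UMIs of Ntn1 and 6 of Sema3f. The mean level of Sema3f was 1.39 higher than in capillary-like cells on the log2 scale, and without that library 0.60 higher, below the 2-fold line.

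Lymphatic-like ECs had Ntn1 at 214 CPM (140 to 313) at 0 weeks and 452 CPM (217 to 832) at 2 weeks, which was 29.7 times (14.97 to 61.6) and 47.4 times (19.9 to 105) the capillary-like level. Sema3d, a secreted semaphorin, stood there at 205 CPM (133 to 303) at 0 weeks against 4.62 CPM in capillary-like cells, a ratio of 44.5 (20.1 to 108). Sema3f stood at 98.6 CPM (51.0 to 172) against 13.3 CPM. These 3 were among 5 of 24 genes at least 2-fold higher than in capillary-like cells (13.4% of all genes). The other 2, Epha2 with 5, 3 and 1 UMIs and Sema6b with 0, 1 and 1, rested on few UMIs. Another 11 were lower (40.2% of all genes), a share near the background in so few cells, and without the 4 cells of 12 weeks 5 were lower.

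The phases were compared in ECs next, to ask which guidance genes differed between the library of healthy hearts and those after TAC. At 2 weeks, 7 of 28 guidance genes with at least 20 UMIs over both libraries (25.0%) were at least 2-fold higher in ECs, where 4.22% of all genes were, and 2 (7.14%) were at least 2-fold lower, where 6.39% were. The median log2 ratio of the 28 was 0.42, against 0.00217 for all 10481 genes, and 22 of the 28 were higher. The summed guidance genes stood at 1325 CPM (1287 to 1365) at 0 weeks, 2091 CPM (2043 to 2140) at 2 weeks and 1833 CPM (1718 to 1954) at 12 weeks. The sum was also higher at 2 weeks than at 0 weeks in the other classes, at 1244 against 822 CPM in FBs, 1110 against 791 CPM in mural cells, 426 against 247 CPM in blood cells and 2190 against 1345 CPM in neural cells. A higher sum at 2 weeks was thus shared by all 5 classes of that library. ECs made up 79.7% of its cells, against 29.3% at 0 weeks and 39.4% at 12 weeks. The part of EC RNA in the sums of the other classes was not tested. At 12 weeks, 3 of 26 guidance genes (11.5%) were at least 2-fold higher in ECs (8.82% of all genes). Another 2 (7.69%) were lower (8.52%), and the median log2 ratio was 0.38 against 0.09. Both comparisons share the healthy library.

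The 7 genes higher at 2 weeks were the ligands Sema3f, Sema3g and Sema7a, the receptor Plxnd1, the Eph receptors Epha2 and Ephb4, and the ephrin Efna2. Of these 7, Sema3f had the largest ratio, 4.26 (3.22 to 5.72) at 2 weeks and 3.78 (2.42 to 5.81) at 12 weeks. Sema3g went from 43.5 CPM to 142 CPM at 2 weeks, a ratio of 3.27 (2.72 to 3.96), and to 127 CPM at 12 weeks, a ratio of 2.92 (2.15 to 3.93). These 2 ligands were thus high in both libraries after TAC. Sema7a, Epha2 and Plxnd1 were high at 2 weeks and nearer the healthy level at 12 weeks. The ratio of Sema7a was 2.58 (2.20 to 3.04) and then 1.14 (0.775 to 1.62), that of Epha2 2.59 (1.99 to 3.41) and then 0.858 (0.396 to 1.66), and that of Plxnd1 2.01 (1.81 to 2.24) and then 1.28 (1.02 to 1.60). Ephb4 stood at 2.19 (1.82 to 2.63) and 1.92 (1.37 to 2.65). Robo4, the Robo gene led by ECs, was just under 2-fold in both, at 1.89 (1.62 to 2.20) and 1.79 (1.36 to 2.34). Efna2 rested on 11 UMIs at 0 weeks and 26 at 2 weeks.

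Smaller differences on the same side were found for Efna1, with ratios of 1.52 (1.34 to 1.72) and 1.71 (1.36 to 2.12), and Unc5b, with 1.56 (1.32 to 1.84) and 1.53 (1.12 to 2.05). Sema6a, in contrast, stood at 1.13 (0.989 to 1.28) and 0.956 (0.722 to 1.25), and Sema6d at 1.07 (0.860 to 1.32) and 1.18 (0.773 to 1.75). The guidance genes of ECs were therefore not all higher. Epha4 and Plxna4 were lower at 2 weeks, at 0.777 (0.621 to 0.970) and 0.622 (0.434 to 0.883). Epha7 went from 9.92 CPM (34 UMIs) to 0.877 CPM (3 UMIs) and 1.95 CPM (1 UMI), and Sema3d from 13.7 CPM to 5.55 and 15.6 CPM. Both are led by FBs, and the FB marker sum in ECs was 556, 117 and 500 CPM, lowest at 2 weeks. Of the Sema3d UMIs in ECs at 0 weeks, 25 of 47 were in lymphatic-like cells, which numbered 35, 14 and 4, and the lymphatic marker sum in ECs was 1147, 148 and 301 CPM. Of the Epha7 UMIs at 0 weeks, 15 of 34 were in endocardial-like cells, which numbered 12, 2 and 2, and the endocardial marker sum was 365, 77.4 and 644 CPM. The parts of these cells and of FB RNA in both ratios were not tested. Plxna1 had 19 and 8 UMIs behind a ratio of 2.82 (1.07 to 6.74) at 12 weeks, and Ephb1 50 and 3 UMIs behind one of 0.402 (0.0801 to 1.24).

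**Figure D3:**
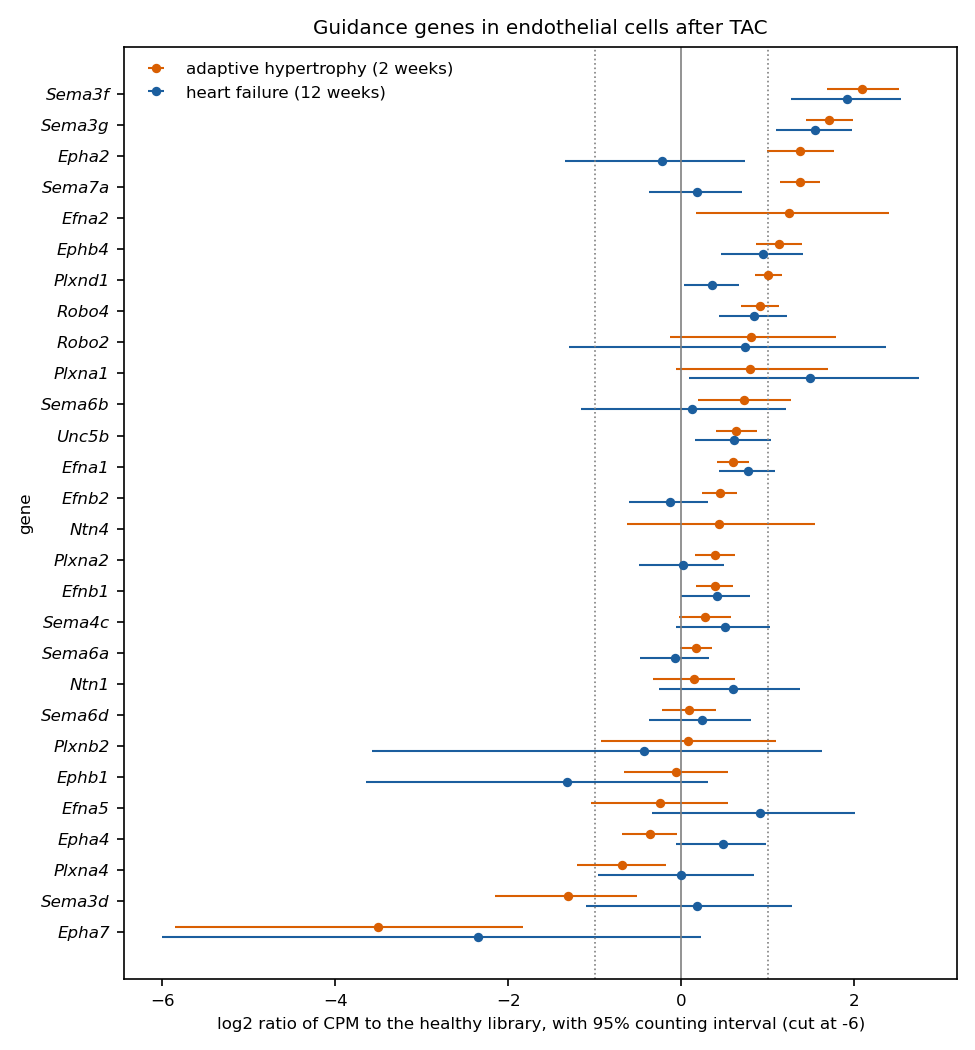
Log2 ratios of CPM in ECs at 2 and 12 weeks to the healthy library, with 95% counting intervals, for the 28 guidance genes with at least 20 UMIs over 0 and 2 weeks, and dotted lines at 2-fold. Sema3f and Sema3g lie to the right at both times, Epha2 and Sema7a at 2 weeks only in these libraries, and Epha7 lies to the left.

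The same genes were then read within subtypes, since subtype shares differed between libraries. In capillary-like ECs at 2 weeks, 5 of 23 genes (21.7%) were at least 2-fold higher (5.08% of all genes) and 0 lower (5.01%). They were Sema3f with a ratio of 4.84 (3.17 to 7.66), Sema7a with 2.60 (2.10 to 3.24), Epha2 with 2.41 (1.67 to 3.56), Ephb4 with 2.16 (1.71 to 2.74) and Plxnd1 with 2.03 (1.77 to 2.34). At 12 weeks Sema3f, Robo4 and Ephb4 were at least 2-fold higher there (3 of 19 genes, against 10.1% of all genes) and 0 were lower (9.41%). Robo4 had a ratio of 2.20 (1.58 to 3.02). In arterial-like ECs at 2 weeks the ratios were 6.75 (3.47 to 14.6) for Sema3f, 3.36 (2.72 to 4.18) for Sema3g, 2.55 (1.29 to 5.41) for Ntn1, 2.50 (1.53 to 4.23) for Epha2, 2.38 (1.78 to 3.22) for Sema7a and 2.04 (1.61 to 2.59) for Plxnd1 (6 of 20 genes, against 6.59% of all genes), and 0 were lower (4.86%). Sema3f, Sema7a, Epha2 and Plxnd1 were thus at least 2-fold higher in both subtypes. Sema3g in capillary-like cells stood at ratios of 1.81 (1.09 to 3.08) and 0.882 (0.170 to 2.90), with 3 UMIs behind the second. At 12 weeks its arterial-like ratio was 2.17 (1.56 to 2.99). Sema3g was one of 4 of 19 genes at least 2-fold higher (7.3% of all genes) with Sema3f, Ntn1 and Ephb4, while 0 were lower (10.7%). The arterial-like share of ECs was also higher in that library. Within arterial-like cells the arterial marker sum was 2179, 2718 and 3559 CPM at 0, 2 and 12 weeks, and the capillary one 5317, 6574 and 3106 CPM. The endocardial marker sum there was 544, 225 and 1525 CPM, and the venous one 215, 286 and 911 CPM. The part of this makeup in the ratios was not tested. In venous-like ECs at 2 weeks, Sema3f, Epha2 and Ephb4 were at least 2-fold higher (3 of 15 genes, against 5.96% of all genes) and Epha4 lower (7.78%), with ratios of 4.25 (1.82 to 11.5), 4.10 (1.49 to 13.995), 2.44 (1.44 to 4.28) and 0.440 (0.177 to 1.002). The 14 venous-like cells at 12 weeks had Ntn1 higher (1 of 10 genes, against 9.08% of all genes) and Epha4 and Sema6a lower (24.7%), from 5, 0 and 1 UMIs.

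FBs were few at 2 weeks, 100 cells with 270151 UMIs, and the intervals are wider. Of 29 guidance genes, 7 (24.1%) were at least 2-fold higher at 2 weeks (9.9% of all genes) and 2 (6.90%) lower (13.4%), with a median log2 ratio of 0.52 against -0.01 for all genes. At 12 weeks, 6 of 30 (20.0%) were at least 2-fold higher (6.87% of all genes) and 2 (6.67%) lower (7.04%), with a median of 0.04 against 0.02. Unc5b, a netrin receptor, had ratios of 3.37 (2.38 to 4.67) at 2 weeks and 2.51 (1.91 to 3.27) at 12 weeks. Plxnb2 went from 28.4 CPM to 92.5 and 57.3 CPM, with ratios of 3.26 (2.02 to 5.05) and 2.02 (1.35 to 2.95). Plxna4 went from 7.84 CPM to 25.9 and 27.0 CPM, with ratios of 3.31 (1.23 to 7.62) and 3.45 (1.80 to 6.40). Ephb3 rested on 27, 9 and 12 UMIs, with ratios of 5.04 (2.08 to 11.0) and 2.89 (1.33 to 5.89). These 4 receptors were at least 2-fold higher in both libraries after TAC.

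Unc5c and Plxna1 were at least 2-fold higher in FBs at 2 weeks, with ratios of 3.13 (1.06 to 7.66) and 2.52 (1.09 to 5.14), and Sema3b stood at 2.11 (0.733 to 4.97). Plxna1 was 0.481 (0.127 to 1.30) of the healthy level at 12 weeks, from 4 UMIs. The netrin ligands of FBs were higher at 2 weeks and not at 12 weeks, Ntn1 with ratios of 1.59 (1.14 to 2.17) and 1.02 (0.776 to 1.32) and Ntn4 with 1.92 (1.20 to 2.94) and 0.825 (0.516 to 1.26). Sema3c, the FB semaphorin, stood at 0.884 (0.594 to 1.27) and 0.674 (0.501 to 0.891). Plxnd1 in FBs stood at 2.35 (1.14 to 4.53) at 12 weeks from 13 UMIs, and its FB level was 5.97%, 4.99% and 10.9% of its EC level, where the endothelial marker sum in FBs was 7.89%, 7.004% and 7.37% of that in ECs. The part of endothelial RNA in that ratio was not tested. Ephb6 stood at 2.03 (0.581 to 5.80) at 12 weeks, from 16 and 5 UMIs. Slit2 and Plxnc1 were lower at 2 weeks, each from 1 UMI, and Plxnc1 and Plxna1 were the 2 lower at 12 weeks, Plxnc1 at 0.317 (0.0371 to 1.22) from 2 UMIs.

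**Figure D4:**
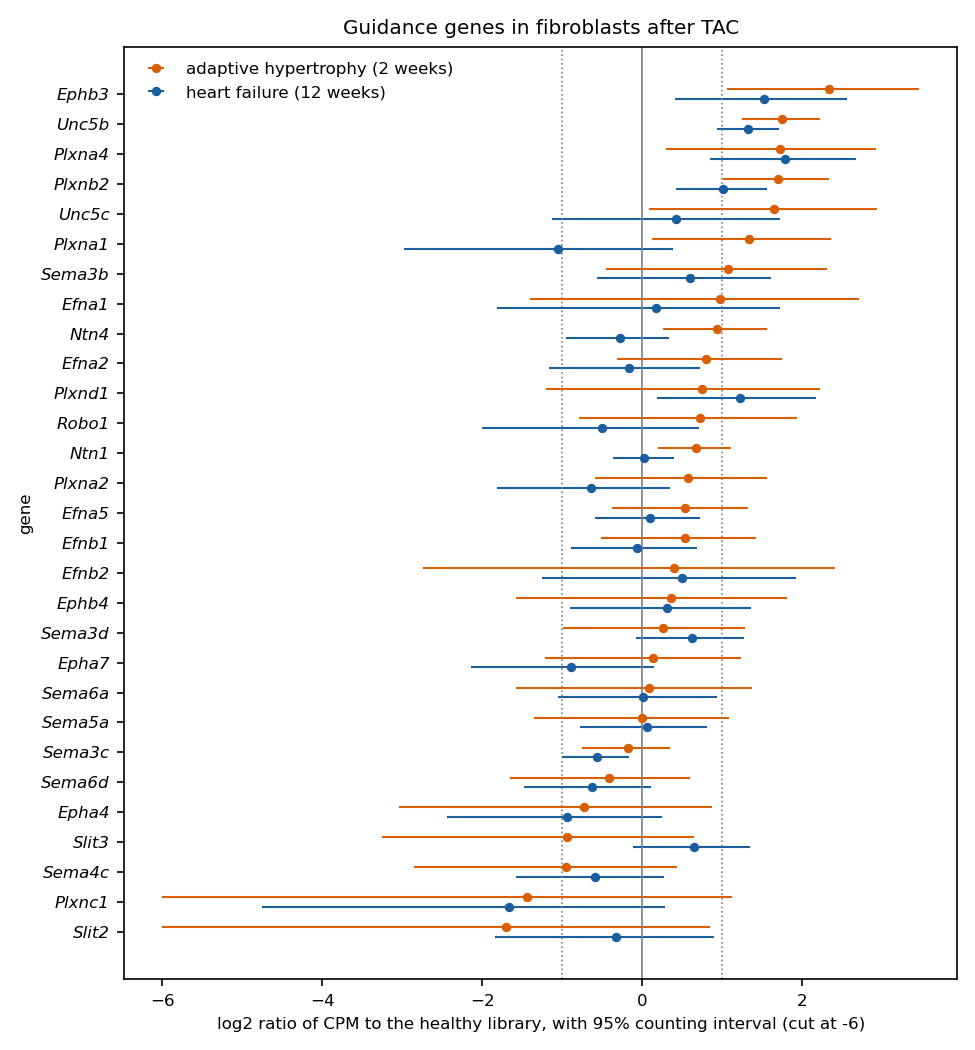
Log2 ratios of CPM in FBs at 2 and 12 weeks to the healthy library, with 95% counting intervals, for the 29 guidance genes with at least 20 UMIs over 0 and 2 weeks, and dotted lines at 2-fold. Ephb3, Unc5b, Plxna4 and Plxnb2 lie to the right at both times, and intervals are wide for genes with few UMIs.

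Mural cells numbered 304, 52 and 34, and single UMIs weigh heavily there. Of 17 genes at 2 weeks, 2 were at least 2-fold higher (6.59% of all genes) and 2 lower (12.6%), and of 15 at 12 weeks, 1 was higher (9.46%) and 4 lower (20.9%). Epha2 was higher at 2 weeks, with a ratio of 3.79 (1.62 to 8.48), and Sema6d at 12 weeks, with 2.98 (1.17 to 6.72). Efnb1 was lower at 2 weeks from 1 UMI, with a ratio of 0.327 (0.00787 to 2.06). Unc5b was also lower there, with 31 UMIs at 0 weeks, 0 at 2 weeks and a ratio of 0 (upper bound 0.785). Of these 31 UMIs, 2 were in the 112 mural cells without a UMI of any endothelial marker. Its level in those cells was 8.60 CPM (1.04 to 31.1), against 33.6 CPM in all mural cells. Sema4c, Efnb2, Plxnb2 and Sema3g were lower at 12 weeks, from 0, 3, 1 and 0 UMIs. The intervals of Sema4c, Efnb2 and Plxnb2 reached equal levels. Sema3g stood at 68.2 CPM (63 UMIs) at 0 weeks, 161 CPM (24 UMIs) at 2 weeks and 0 UMIs at 12 weeks, a ratio of 0 (upper bound 0.629). In cells without a UMI of any endothelial marker, however, 1 of the 63 UMIs and 0 of the 24 were found, in 112 and 15 cells. The Sema3g of mural cells thus lay nearly all in cells that also held endothelial transcripts. The endothelial marker sum in mural cells was 16.2%, 14.8% and 7.50% of that in ECs. Efnb2 differed in this, with 15 of 71 UMIs at 0 weeks in the same 112 cells, a level of 64.5 CPM (36.1 to 106) against 76.9 CPM in all mural cells.

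In blood cells, 4 of 10 genes were at least 2-fold higher at 2 weeks (11% of all genes) and 2 lower (14%), and 2 of 9 were higher (14.3%) and 1 lower (12.5%) at 12 weeks. Sema4d, a semaphorin of leukocytes, went from 14.3 CPM to 92.9 and 37.8 CPM, with ratios of 6.51 (4.05 to 10.4) and 2.65 (1.33 to 4.98). Plxnd1 went from 22.0 CPM to 56.2 and 24.3 CPM, with ratios of 2.56 (1.51 to 4.20) and 1.11 (0.482 to 2.24). Plxnc1 and Plxna1 were higher at 2 weeks, with ratios of 2.30 (1.04 to 4.67) and 2.97 (1.12 to 7.17). Sema4b, at 6.96 CPM from 19 UMIs at 0 weeks, was higher at 12 weeks. Sema6d was lower at 2 weeks, at 0.239 (0.00583 to 1.44) from 1 UMI. Plxna4 was lower in both libraries after TAC, at 0.393 (0.0784 to 1.21) from 3 UMIs at 2 weeks. At 12 weeks 2 of 172 blood cells had a UMI of it. At 2 weeks the intervals of Sema6d and Plxna4 reached equal levels, and at 12 weeks that of Plxna4 did so too. Sema4a stood near the healthy level, with ratios of 1.01 (0.612 to 1.58) and 1.16 (0.714 to 1.81). The makeup of the class differed between libraries: a UMI of Csf1r, a macrophage and monocyte receptor, was seen in 76.4%, 55.5% and 32.6% of blood cells, and one of Cd79a, a B cell gene, in 3.68%, 1.05% and 37.8%. These shares were not thinned, and the median depth of blood cells was 2608.5, 1565 and 1568 UMIs. As levels, Csf1r stood at 698, 550 and 427 CPM and Cd79a at 50.2, 7.34 and 829 CPM. Within the 859, 133 and 65 blood cells with a Csf1r or C1qa UMI, Sema4d stood at 10.9 CPM (7.19 to 15.9), 88.2 CPM (57.1 to 130) and 18.1 CPM (3.73 to 52.8). Its level at 2 weeks was therefore as high in these cells as in the whole class, while at 12 weeks the interval overlapped that of healthy hearts. Plxnd1 in the same cells stood at 22.2, 74.1 and 48.2 CPM. Plxna4 stood there at 20.6 CPM (15.4 to 27.1), 10.6 CPM (2.18 to 30.9) and 12.04 CPM (1.46 to 43.5). These levels rested on 51, 3 and 2 UMIs, their intervals overlapped, and the other blood cells held no UMI of Plxna4. The part of the class makeup in its lower levels after TAC was not tested.

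Of 58 other genes of guidance signaling, chosen as co-receptors, other ligands and effectors, 54 had at least 10 UMIs. ECs led 6 of these 54 (6.61% of all genes), which besides Nrp1 and Nrp2 were Rnd1, Nck1, Arhgef15 and Rgs3, and FBs led 3 (6.43%), neural cells 6 (8.8%), mural cells 1 (Enah, against 5.19%) and blood cells 1 (Cd72, a receptor for Sema4d, at 145 CPM, against 7.58%). In ECs at 2 weeks, 2 of 42 were at least 2-fold higher (4.22% of all genes) and 2 lower (6.39%), with a median log2 ratio of 0.03, against 7 and 2 of 28 for the ligands and receptors themselves. Nrp1 stood at 1085 CPM at 0 weeks and 1099 CPM at 2 weeks in ECs, while its partner Plxnd1 stood at 148 and 297 CPM.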

How the data were processed

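Single-cell libraries of non-CMs, isolated from ventricles with collagenase and Percoll, were made with the droplet method of 10x Genomics and sequenced on a HiSeq instrument. The authors deposited UMI counts per gene and cell, not normalized, made per the submitters' processing notes with Cell Ranger 2.0.0 on the mouse genome mm10. Of the deposited cells, those with at least 200 genes were kept, 6915 in all, with 12287823, 4465929 and 1712728 UMIs at 0, 2 and 12 weeks.

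Counts of a class were summed per library and divided by all its UMIs (CPM). Levels carry exact Poisson intervals, ratios exact conditional binomial intervals and shares Clopper-Pearson intervals, all at 95%. The class gate needed at least 3 marker UMIs from 2 markers. ECs needed 2 markers of an arterial, venous, endocardial or lymphatic list, and otherwise 2 of the capillary list. Phase ratios were read for genes with at least 20 UMIs over both libraries, and 2-fold was a limit of size, not a test. Doublets were called with Scrublet (in scanpy 1.11.5) in 0.607% of cells and left in. Python 3.11.15, numpy 2.4.6 and scipy 1.17.1 were used, and interval and ratio code was tested on simulated counts.

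Values are given for members with at least 200 UMIs, for members past 2-fold between phases in a class, and for members at least 2-fold higher in an EC subtype than in capillary-like ECs. Robo1, Slit3, Plxnb1 and Ntng1 lie outside this rule and were named after their values were seen. The members and all lists were chosen with earlier results of these data known. Alternatives changed the gate, filters, doublets, scale, minimum and libraries. Ratios centred on the median gene, mural cells without endothelial markers and blood cells with Csf1r or C1qa were added after seeing the data.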

Additional observations from a re-analysis of the deposited data

Results flagged for a closer look

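Some genes lay on opposite sides of the healthy library in different classes, with counting intervals that did not reach equal levels. None of these differences between classes was tested. Plxna4 at 2 weeks had a ratio of 3.31 (1.23 to 7.62) in FBs and 0.622 (0.434 to 0.883) in ECs. Unc5b at 2 weeks had a ratio of 1.56 (1.32 to 1.84) in ECs and 3.37 (2.38 to 4.67) in FBs, whereas mural cells had 0 UMIs and a ratio of 0 (upper bound 0.785). Of its 31 healthy UMIs in mural cells, 2 lay in cells without an endothelial marker UMI. Sema3g at 12 weeks had a ratio of 2.92 (2.15 to 3.93) in ECs and 0 in mural cells (upper bound 0.629), where its healthy UMIs lay, but for 1 of 63, in cells that also had an endothelial marker UMI.

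Cells that no class took were used in no comparison, and they held Sema3g at 199 CPM (175 to 225), from 257 UMIs in 365 cells. Of these UMIs, 254 were in 168 cells that had at least 3 endothelial and at least 3 mural marker UMIs, with a median of 4873 UMIs per cell.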

How the results depend on the processing

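No paired analysis was possible because each phase had 1 library. Of 192 counts of guidance genes recomputed under an alternative, 161 stayed within 1.5 times the reported count. Leaving out 1 library gave 1 to 3 genes led by blood cells, 0 to 1 lower in arterial-like, 3 to 6 lower in venous-like and 5 to 11 lower in lymphatic-like ECs. With UMIs pooled over libraries, 1 gene was led by blood cells and 0 were lower in arterial-like ECs. With 3 markers for a subtype, 8 genes were higher and 2 lower in arterial-like and 5 lower in venous-like ECs. In ECs at least 2-fold lower at 2 weeks were 1 with a gate margin of 3, 0 in capillary-like cells, 1 with a minimum of 50 UMIs and 10 with none, and at 12 weeks 1, 0, 1 and 14. Higher in ECs at 12 weeks were 6 by means over cells and 10 with no minimum. In FBs at 2 weeks, 3 were higher with a minimum of 50 UMIs and 16 with none, and at 12 weeks 2 and 15. Lower in FBs at 2 weeks were 4 without cells over 10% mitochondrial, 4 by means over cells, 1 with 50 UMIs and 15 with none, and at 12 weeks 1, 4, 1 and 13. The share of all genes was not computed under these alternatives, so that these counts have no background beside them. Those with no minimum include genes with few UMIs. Of 711 recomputed values of single genes, 677 moved by less than their counting error. The alternatives largely reuse the same cells, and counting error is wide for genes with few UMIs, so that this share cannot stand for replicates. Sign changes were counted only for log2 values of at least 1 in size, and 3 were found. These were Robo2 in venous-like ECs (log2 -0.42 with 3 markers), Sema6b in lymphatic-like ECs (-0.26, pooled) and Sema3g in ECs at 12 weeks (-0.17 in capillary-like cells). The causes were not tested. Few FBs at 2 weeks and mural, neural and lymphatic-like cells throughout limit what this depth can show.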

Other observations

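Of the listed partners and effectors of guidance signaling, 9 of 44 were at least 2-fold higher in FBs at 2 weeks (9.9% of all genes) and 3 lower (13.4%). At 12 weeks, 10 of 32 were lower in blood cells (12.5% of all genes), whose makeup differed between libraries, and 9 of 30 in mural cells (20.9%). Mical2, an enzyme that oxidizes actin, stood at 61.2, 218 and 76.4 CPM in FBs at 0, 2 and 12 weeks, with a ratio of 3.57 (2.64 to 4.75) at 2 weeks. Neo1, a receptor for netrins and for repulsive guidance molecules, stood at 16.2, 59.2 and 23.9 CPM, with a ratio of 3.66 (1.98 to 6.40). Rgma, one of those ligands, stood at 31.1, 66.6 and 23.9 CPM, with a ratio of 2.14 (1.23 to 3.52). All 3 were nearer the healthy level at 12 weeks.

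In ECs, Nck2, an adaptor of Eph and other receptors, stood at 13.4, 30.4 and 37.1 CPM, with ratios of 2.26 (1.59 to 3.28) and 2.76 (1.53 to 4.81). Itga1, the integrin subunit listed as a Sema7a receptor, stood at 93.1, 46.2 and 58.6 CPM, with ratios of 0.496 (0.407 to 0.602) and 0.629 (0.418 to 0.916). Dpysl3, an effector of semaphorin signaling, stood at 78.8, 35.7 and 41.0 CPM in ECs and is led by FBs, whose marker sum in ECs was 556, 117 and 500 CPM. The part of FB RNA in the Dpysl3 values was not tested.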
